A study of Mus musculus with 12 samples.

Results

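The oligoadenylate synthetase (OAS) genes of the mouse were followed in 4T1 mammary carcinoma cells that had been cultured with myeloid cells. The genes were chosen from this family with earlier results of these data known: *Oas1a*, *Oas1b*, *Oas1c*, *Oas1g*, *Oas2*, *Oas3*, *Oasl1* and *Oasl2*, which are 8 of 35521 genes counted. The copies *Oas1d*, *Oas1e*, *Oas1f* and *Oas1h*, with at most 1 count in any library, are not among these 8. All 8 passed the filter on low counts, but *Oas2* passed only through the Tu-primed libraries and lay under the minimum of 0.368 CPM (counts scaled to library size) in every other library. Further genes of the pathway are described beside them.

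Bulk RNA-Seq was available for 3 groups of 4 libraries, all of the 4T1 line, which derives from BALB/c mice. Tu-primed cells (group 4T1_MDSC_T) had shared a Transwell plate with Gr1+ cells from tumors for 48 hours, Spl-primed cells (4T1_MDSC_S) with Gr1+ cells from spleens, both taken from Balb/C mice with 4T1 tumors, and parental cells (4T1) had no such partner. The Gr1+ cells were taken at day 21 according to the labels, membrane pores of 0.4 µm kept them apart from the 4T1 cells, and the 4T1 cells were lysed in the well. Gr1 is a surface antigen of granulocytes and of part of the monocytes, so the partner cells were a mixture. Whether each library came from a separate culture or separate mice is not stated, so p-values measure the spread between these libraries, which may be technical. Library totals lay between 24566183 and 31637755 reads.

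OAS enzymes bind double-stranded RNA and then join ATP into short oligoadenylates. These are second messengers that lead to the cutting of single-stranded RNA of virus and host. The genes belong to the type I interferon response: interferon binds its receptor, the kinases Jak1 and Tyk2 act on STAT proteins such as Stat2, which binds DNA together with Irf9 at interferon-stimulated response elements (ISREs). In the mouse, Oas1 has been copied many times, and some copies, among them Oas1c and the truncated product of *Oas1b* in most laboratory strains, lack synthetase activity. Oasl1 also lacks it and is known to hold down translation of Irf7, whereas Oasl2 keeps it and carries ubiquitin-like domains.

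The genes lie on chromosome 5 in 2 groups. In the GRCm38 annotation, *Oasl2* (ENSMUSG00000029561, chr5:114896936-114912234) and *Oasl1* (ENSMUSG00000041827, chr5:114923240-114937915) are neighbors. *Oas2* (ENSMUSG00000032690, chr5:120730333-120749853), *Oas3* (ENSMUSG00000032661, chr5:120753098-120777661), *Oas1c* (ENSMUSG00000001166, chr5:120800194-120812514), *Oas1b* (ENSMUSG00000029605, chr5:120812635-120824163), *Oas1g* (ENSMUSG00000066861, chr5:120876142-120887613) and *Oas1a* (ENSMUSG00000052776, chr5:120896256-120907521) form the other group. *Oas1b* is annotated as a polymorphic pseudogene and the other 7 as protein coding.

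The Oas1 copies are alike enough to limit what short reads can tell apart. The first 60 coding bases of the 4 copies with reads are given here from the GENCODE M21 transcripts (GRCm38), 5′ to 3′, with bases that differ from *Oas1a* in capitals.
Oas1a (chr5:120907417-120907476, minus strand): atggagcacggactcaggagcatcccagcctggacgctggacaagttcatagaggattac
Oas1g (chr5:120887503-120887562, minus strand): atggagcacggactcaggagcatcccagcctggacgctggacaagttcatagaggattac
Oas1b (chr5:120812701-120812760, plus strand): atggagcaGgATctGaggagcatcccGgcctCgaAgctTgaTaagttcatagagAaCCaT
Oas1c (chr5:120808704-120808763, minus strand): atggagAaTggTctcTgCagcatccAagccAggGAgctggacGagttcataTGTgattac
*Oas1g* had no difference from *Oas1a* over these bases, and *Oas1b* and *Oas1c* had 13 each. Over the whole coding sequence of 1101 bases, *Oas1a* and *Oas1g* were 96.7% identical, while *Oas1a* shared 81.7% with *Oas1b* and 76.7% with *Oas1c*. Of the 31-base words in its transcripts, *Oas1a* had 31.2% that occur in no other gene and *Oas1g* 44.9%, against 79.3% for *Oas1c* and 94.7% for *Oas1b*. For *Oas2*, *Oas3*, *Oasl1* and *Oasl2*, between 98.1% and 100% of the words were their own. The split of reads between *Oas1a* and *Oas1g* is therefore uncertain, and the counts of all Oas1 copies, *Oas1a* to *Oas1h*, are also given added into 1 value.

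All 8 genes were higher in Tu-primed than in Spl-primed 4T1 cells. The fold was over 10 for *Oas2*, *Oas3*, *Oas1a*, *Oasl2* and *Oas1g*, 5.63 for *Oas1b*, and between 2.16 and 2.46 for *Oas1c* and *Oasl1*. At a Benjamini-Hochberg adjusted p under 0.05 in edgeR's quasi-likelihood test over 12555 genes, the 7 genes other than *Oas2*, which the filter kept only for its high group, were all called higher, where 4.66% of all genes were called higher, 2.97% lower and 7.63% in either direction. For these 7, every Tu-primed library lay above every Spl-primed library, which held in this direction for 8.51% of all genes. Across the 7 genes the log2 fold change had a median of 3.53, beside -0.01 across all genes tested. Of the 8 genes, 6 (*Oas1a*, *Oas1b*, *Oas1g*, *Oas2*, *Oas3* and *Oasl2*) stand on a signature that the study drew from these same libraries, so their direction is not independent evidence. In bulk RNA, a change in the share of cells that express a gene and a change in RNA per cell cannot be told apart.

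**Figure D1:**
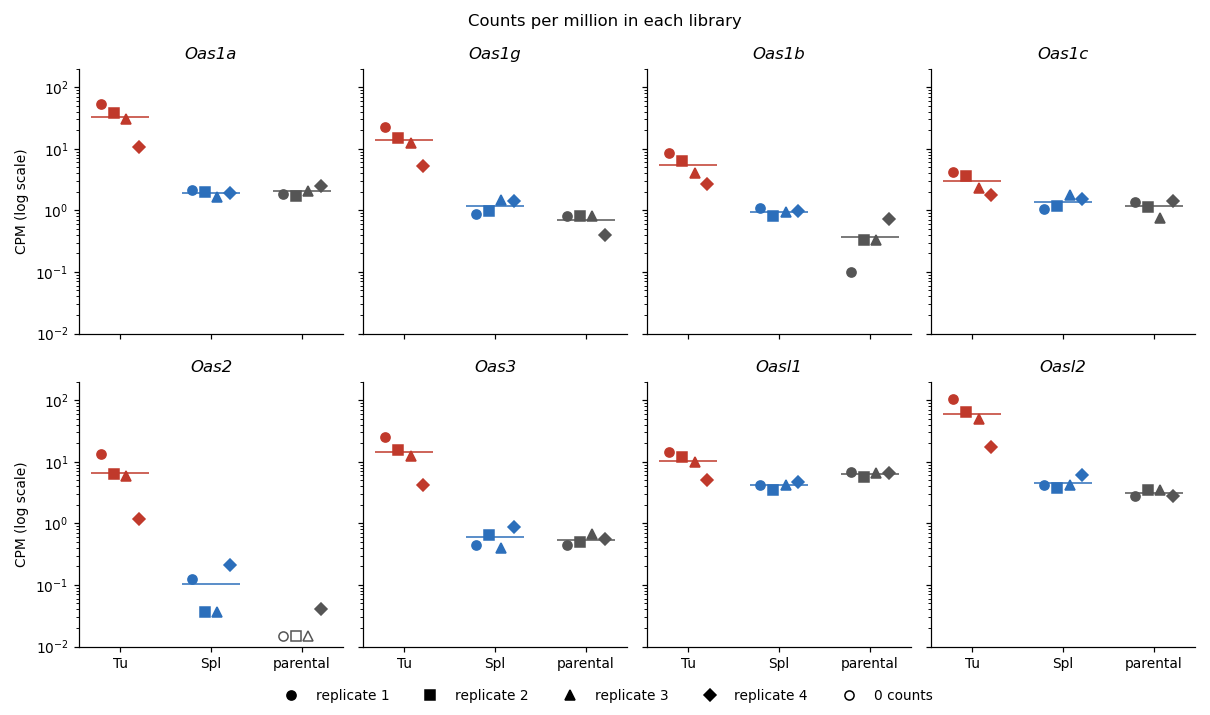
CPM (log scale) of the 8 OAS genes in each library, with 1 symbol per replicate number, a line at the group mean and open symbols for libraries with 0 counts. The Tu-primed libraries stand above the Spl-primed ones in each panel, and within the Tu-primed group replicate 1 is highest and replicate 4 lowest throughout.

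Among the enzymes with synthetase activity, *Oas1a* had 1489, 964, 872 and 312 counts in Tu-primed replicates 1 to 4. It had 67, 54, 46 and 54 counts in Spl-primed and 55, 42, 49 and 62 in parental libraries. The lowest Tu-primed library thus held several times the reads of any other library, and the Spl-primed and parental ranges overlapped. Mean CPM was 32.9 ± 17.4 (SD, n = 4) in Tu-primed, 1.90 ± 0.181 in Spl-primed and 2.03 ± 0.328 in parental cells, and the log2 fold change of Tu-primed over Spl-primed cells was 4.10 ± 0.39 (SE; adjusted p = 2.45e-05, edgeR). Its near copy *Oas1g* had 624, 385, 353 and 153 counts in Tu-primed, 28, 27, 40 and 41 in Spl-primed and 24, 20, 19 and 10 in parental libraries. Here the Tu-primed libraries were again apart, and the Spl-primed CPM values, which averaged 1.18 ± 0.297 (SD, n = 4), lay just above the parental ones at 0.707 ± 0.205. The log2 fold change of Tu-primed over Spl-primed cells was 3.53 ± 0.37 (SE; adjusted p = 4.57e-05, edgeR). With the reads of *Oas1a* to *Oas1h* added into 1 value, which no split among the 8 copies can move but which includes the less changed *Oas1b* and *Oas1c*, the log2 fold change was 3.34 ± 0.33 (SE; adjusted p = 3.41e-05, edgeR).

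*Oas2* showed the largest contrast of the family. It had 370, 160, 166 and 34 counts in Tu-primed libraries, 4, 1, 1 and 6 in Spl-primed libraries, and 0, 0, 0 and 1 in parental libraries. Outside the Tu-primed group it was thus at the limit of detection, where a count of 0 allows up to 3 counts. Scaled by library size, the summed counts were 63.2 times higher in Tu-primed than in Spl-primed cells (95% interval 36.0 to 123, which covers counting error only). The fitted log2 fold change was 5.93 ± 0.72 (SE). Its p-value is not used, because the filter kept *Oas2* only for its high group. *Oas3*, which encodes the largest protein of the family, had 705, 406, 357 and 119 counts in Tu-primed, 14, 18, 11 and 25 in Spl-primed and 13, 12, 16 and 14 in parental libraries. The Spl-primed and parental libraries were alike in range, and the log2 fold change of Tu-primed over Spl-primed cells was 4.60 ± 0.48 (SE; adjusted p = 4.57e-05, edgeR). *Oasl2* was the most abundant member in Tu-primed cells, with 2953, 1655, 1415 and 497 counts, against 136, 104, 115 and 177 in Spl-primed and 81, 83, 83 and 70 in parental libraries. Its 3 groups did not overlap, and the log2 fold change of Tu-primed over Spl-primed cells was 3.68 ± 0.41 (SE; adjusted p = 8.2e-05, edgeR).

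In Tu-primed over Spl-primed cells, the members without known synthetase activity had the smaller fitted changes. Over parental cells this did not hold for *Oas1b*, whose log2 fold change of 3.88 was near the 4.02 of *Oas1a*. *Oas1b* had 243, 161, 117 and 77 counts in Tu-primed, 35, 22, 26 and 28 in Spl-primed and 3, 8, 8 and 18 in parental libraries. Its groups fell into 3 steps without overlap in CPM, and the log2 fold change of Tu-primed over Spl-primed cells was 2.49 ± 0.37 (SE; adjusted p = 0.000792, edgeR). *Oas1c* had 117, 93, 66 and 52 counts in Tu-primed, 34, 32, 48 and 44 in Spl-primed and 40, 27, 18 and 36 in parental libraries. Its lowest Tu-primed value, 1.80 CPM, was close to its highest Spl-primed value of 1.74 CPM, and the log2 fold change was 1.11 ± 0.28 (SE; adjusted p = 0.0251, edgeR). This call was lost without Tu replicate 1 or 2 or without Spl replicate 1 or 2 (adjusted p between 0.0765 and 0.101, edgeR), and with transcript length offsets (adjusted p = 0.167).

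*Oasl1* differed from its neighbor *Oasl2* in both level and change. It had 405, 305, 281 and 145 counts in Tu-primed, 135, 97, 116 and 134 in Spl-primed and 205, 137, 156 and 162 in parental libraries. Parental cells thus held more *Oasl1* reads than Spl-primed cells. The log2 fold change of Tu-primed over Spl-primed cells was 1.30 ± 0.23 (SE; adjusted p = 0.00323, edgeR).

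The spread within the Tu-primed group followed 1 order for the whole family. Replicate 1 had the highest and replicate 4 the lowest CPM for 8 of 8 genes, and the ratio between these libraries ran from 2.30 for *Oas1c* to 11.1 for *Oas2*. Even so, *Oasl1* was the only member for which Tu replicate 4 did not lie above every parental library. Without Tu replicate 1, the log2 fold change of Tu-primed over Spl-primed cells was between 0.90 for *Oas1c* and 5.35 for *Oas2*.

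Against parental cells, the same 7 of 7 genes were called higher in Tu-primed cells by edgeR's quasi-likelihood test, in a comparison where 31.2% of all genes were called higher and 59.2% in either direction. For 6 of 7, the groups did not overlap, against 28.6% of all genes in this direction. Across the 7 genes the log2 fold change had a median of 4.02, beside 0.02 across all genes. The log2 fold changes were 4.02 ± 0.39 (SE) for *Oas1a*, 4.26 ± 0.40 for *Oas1g*, 3.88 ± 0.44 for *Oas1b*, 1.34 ± 0.29 for *Oas1c*, 4.73 ± 0.49 for *Oas3* and 4.25 ± 0.44 for *Oasl2*. For *Oas2*, whose single parental read came from replicate 4, the ratio of summed counts scaled by library size was 674 (95% interval 121 to 26661, counting error only). The fitted log2 value of *Oas2* was 8.85 and moved to 10.51 without that library, so it is not used as a size. *Oasl1* was the exception: Tu replicate 4, at 5.03 CPM, lay below every parental library, the log2 fold change was 0.68 ± 0.23 (SE; adjusted p = 0.0191, edgeR), and the call was lost without Tu replicate 1 (adjusted p = 0.0809) or Tu replicate 2 (adjusted p = 0.0545). It was also lost with limma-voom (adjusted p = 0.0701) and with transcript length offsets (adjusted p = 0.0568).

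Between Spl-primed and parental cells, 2 of the 7 genes other than *Oas2* were called by edgeR's quasi-likelihood test, where 48.2% of all genes were. *Oas1b* was higher in Spl-primed cells, with a log2 fold change of 1.39 ± 0.49 (SE; adjusted p = 0.0311), beside 25.7% of all genes called higher. *Oasl1* was lower, with -0.62 ± 0.24 (SE; adjusted p = 0.0466), beside 22.5% called lower. Neither call was firm. That of *Oas1b* was lost when Spl replicate 1 or 4 or parental replicate 1, 2 or 3 was left out (adjusted p between 0.0579 and 0.0937, edgeR), and that of *Oasl1* in 9 of 12 such fits (adjusted p up to 0.113). With limma-voom neither gene was called (adjusted p = 0.0796 and 0.102).

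Of the other members, *Oas1g* (log2 fold change 0.73, 95% interval -0.33 to 1.79) and *Oasl2* (0.57, -0.49 to 1.64) had Spl-primed libraries that all lay above the parental ones, but did not pass the test. Groups without overlap in this direction, *Oas1b* included, were thus 3 of these 7, against 21.3% of all genes. The interval was -1.13 to 0.96 for *Oas1a*, -0.41 to 0.87 for *Oas1c* and -1.34 to 1.61 for *Oas3*, so changes within these bounds are not excluded. For *Oas2* the counts gave a ratio of 10.7 with an interval of 1.58 to 456, from 12 reads against 1. The comparisons of Tu-primed and of Spl-primed cells with parental cells share the 4 parental libraries.

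**Figure D2:**
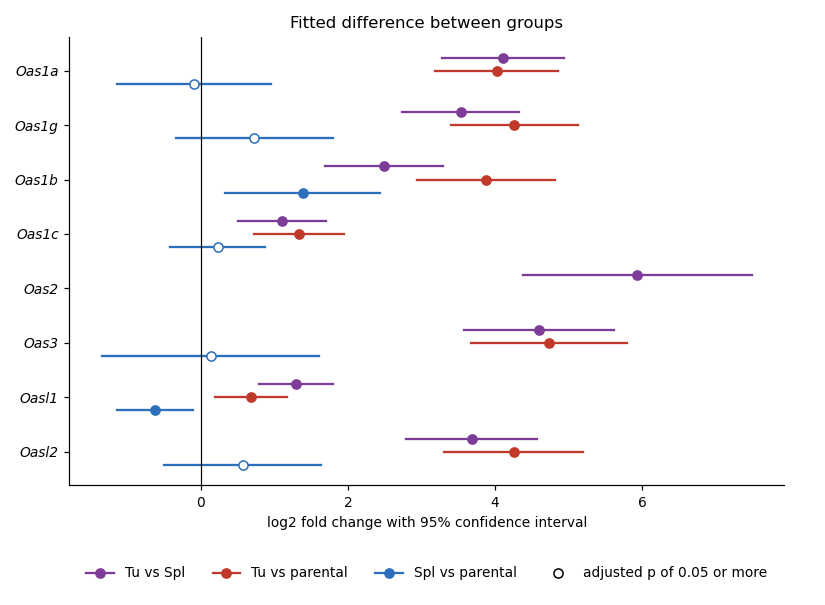
Fitted log2 fold change (horizontal axis, with 95% confidence interval) of the 8 OAS genes in the 3 comparisons, with open symbols where the adjusted p was 0.05 or more. *Oas2* is drawn only for Tu vs Spl because its fitted value against the parental group rests on 1 read. The filter kept *Oas2* only for its high group, so its symbol is not read as a call. The values of *Oas1a*, *Oas1g*, *Oas2*, *Oas3* and *Oasl2* are near or above 3.5 in Tu vs Spl, whereas *Oas1c* and *Oasl1* are near 1.

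Per transcript length, the makeup of the family shifted as well. TPM values were summed over the 8 genes in each library, and each gene's share of that sum was compared. *Oasl1* made up 43.4% ± 5.09 (SD, n = 4) of OAS transcripts in parental cells, 26.2% ± 1.63 in Spl-primed cells and 6.97% ± 1.45 in Tu-primed cells. It led the order of TPM levels in parental cells, at 3.57 ± 0.844 TPM, where its range did not overlap that of *Oasl2* in second place. In Spl-primed cells, the ranges of *Oasl2* and *Oasl1* overlapped at the head of the order, with 3.55 ± 0.610 and 3.11 ± 0.295 TPM, but *Oasl2* was the higher within each library.

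In Tu-primed cells the order of mean TPM was *Oasl2* (49.1 ± 30.6), *Oas1a* (27.5 ± 14.4), *Oas1g* (17.6 ± 8.29), *Oasl1* (7.54 ± 2.92), *Oas1b* (5.85 ± 2.58), *Oas3* (5.59 ± 3.11), *Oas2* (2.54 ± 1.84) and *Oas1c* (2.34 ± 0.827). Across libraries the ranges of each 2 neighbors overlapped. Within each Tu-primed library, however, *Oasl2*, *Oas1a*, *Oas1g*, *Oasl1* and *Oas1b* kept this order, whereas the places of *Oas3*, *Oas2* and *Oas1c* varied. Shares varied less between the Tu-primed libraries than levels did. *Oasl2* held between 35.4% and 45.2% of the family in Tu-primed libraries and between 26.5% and 32.3% in Spl-primed libraries. *Oas1a* held between 22.5% and 24.6% in Tu-primed and between 11.5% and 15.0% in Spl-primed libraries.

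An exact two-sided permutation test of the mean share, Tu-primed against Spl-primed, was run for the 8 genes. With 70 splits of 4 against 4 libraries, the smallest p it can give is 0.0286, and 7 of 8 genes reached it. Among these, the shares of *Oasl2*, *Oas1a*, *Oas1g*, *Oas3* and *Oas2* were higher in Tu-primed cells and those of *Oasl1* and *Oas1c* lower. The share of *Oas1b* was 5.39% ± 1.37 (SD, n = 4) in Tu-primed and 7.98% ± 1.57 in Spl-primed cells (exact permutation p = 0.0571). Shares within 1 library add to a fixed sum, so the 8 tests are not independent. They also follow from the unequal fold changes given above and are not separate evidence. The share of *Oas2* rests on 1 to 6 counts in each Spl-primed library.

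**Figure D3:**
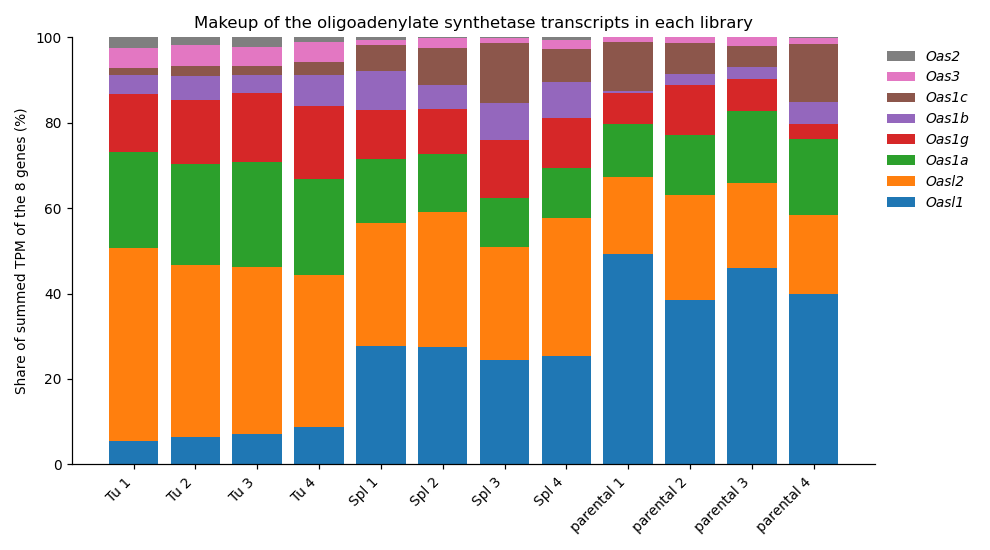
Share of each gene in the summed TPM of the 8 OAS genes (vertical axis, percent), with 1 bar per library. *Oasl1* falls from the largest block in the 4 parental libraries to between 5.40% and 8.85% in the 4 Tu-primed libraries, where *Oasl2* is the largest.

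The reads of single transcript models differed between members. All reads of *Oas1a* lay on its 1 model. Of the *Oas1g* reads in Tu-primed cells, 59.9% ± 10.4 (SD, n = 4) were placed on a model annotated for nonsense-mediated decay and 22.6% ± 7.84 on the protein-coding one. For *Oasl2* these shares were 46.7% ± 4.93 and 40.6% ± 4.49. With only protein-coding models counted, *Oasl2* in Spl-primed against parental cells turned to a log2 fold change of -0.036 (adjusted p = 0.970, edgeR). Reads of *Oas1b* lay on the pseudogene and processed models, so that gene had no reads left in that count.

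The bases before the annotated starts were read for 6 of the 8 genes from the RefSeq promoter table (GRCm38.p6). They were searched on both strands for GAAANNGAAA, an ISRE-type motif, in the 250 bases before each start. Such a match was present before *Oas1a*, *Oas1g*, *Oas1c* and *Oas3* but not before *Oasl1* and *Oasl2*, and 2.98% of 32851 promoters held 1 or more. The 120 bases before the start are given here for the genes with a match, on the strand of the gene and with the matches in capitals. The stretch printed for *Oas1b* is the whole interval between its annotated start and that of *Oas1c*, which is read in the other direction.
Oas1a (chr5:120907526-120907645, minus strand): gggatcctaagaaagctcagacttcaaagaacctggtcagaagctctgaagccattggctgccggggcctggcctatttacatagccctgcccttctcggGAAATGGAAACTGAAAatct
Oas1g (chr5:120887614-120887733, minus strand): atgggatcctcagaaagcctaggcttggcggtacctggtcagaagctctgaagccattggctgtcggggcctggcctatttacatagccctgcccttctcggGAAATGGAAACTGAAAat
Oas1b (chr5:120812515-120812634, plus strand): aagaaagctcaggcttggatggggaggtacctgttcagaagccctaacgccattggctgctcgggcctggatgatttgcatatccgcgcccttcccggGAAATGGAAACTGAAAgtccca
Oas3 (chr5:120777660-120777779, minus strand): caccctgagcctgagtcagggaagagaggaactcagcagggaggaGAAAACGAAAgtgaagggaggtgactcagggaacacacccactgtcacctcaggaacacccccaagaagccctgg
In *Oas1a*, *Oas1g* and *Oas1b* the capitals are the same 16 bases, GAAATGGAAACTGAAA, which hold 2 overlapping matches. They began 20, 18 and 22 bases before the start, respectively. Lined up at an offset of 2, *Oas1a* and *Oas1g* differed at 10 of 118 bases. Seen from *Oas1c*, the same 16 bases lie at the far end of the shared interval, on the opposite strand and between 114 and 99 bases before its start. In Tu-primed over Spl-primed cells, the log2 fold change was 2.49 for *Oas1b* and 1.11 for *Oas1c*. The promoter table has no entry for *Oas1b*. Among its 32851 promoters, the run of 16 was found on either strand before the starts of 5 gene symbols, *Oas1a*, *Oas1c*, *Oas1g*, *Apol9a* and *Apol9b*. The match before *Oas3* was 75 to 66 bases from the start and was GAAAACGAAA. A second motif, TTCNNNGAA, the GAS type that Stat dimers are known to bind, had 1 match before *Oas1a* and none before the other 5 genes, and 7.02% of promoters held it. A match is a description of the letters and not a measured binding site.

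**Figure D4:**
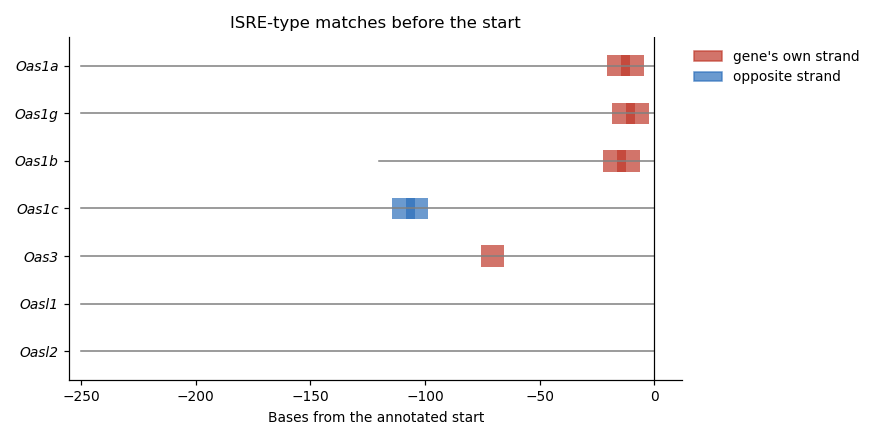
ISRE-type matches (bars) by distance in bases from the annotated start of each gene, with bars colored by strand and grey lines for the bases searched. *Oas1a*, *Oas1g* and *Oas1b* carry their matches within 22 bases of the start, *Oas1c* and *Oas3* farther away, and *Oasl1* and *Oasl2* none within 250 bases.

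Listed genes that act after oligoadenylate synthesis, *Abce1*, *Pde12* and *Akap7*, were not called higher. *Abce1*, which also recycles ribosomes, had a log2 fold change of -0.10 in Tu-primed over Spl-primed cells (adjusted p = 0.349, edgeR), *Pde12*, which degrades oligoadenylates, -0.13 (adjusted p = 0.238), and *Akap7*, which has a domain of similar activity, -0.01 (adjusted p = 0.964). Against parental cells, *Abce1* was lower in Tu-primed cells (-0.24, adjusted p = 0.00371), and *Pde12* was lower in Tu-primed (-0.40, adjusted p = 0.000123) and in Spl-primed cells (-0.27, adjusted p = 0.00358). *Oas1e*, *Oas1f* and *Oas1h* had 0 counts in all 12 libraries and *Oas1d* at most 1, so 4 further Oas1 copies were not tested.

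Of 33 further genes of the pathway listed from general knowledge, 24 were tested. In Tu-primed over Spl-primed cells 14 were called higher and 1 lower, where 4.66% and 2.97% of all genes were. In Tu-primed over parental cells 16 were called higher and 4 lower, beside 31.2% and 28% of all genes, and in Spl-primed over parental cells 8 and 2, beside 25.7% and 22.5%. With 48.2% of all genes called in either direction, the last count does not stand out. Among genes that sense or act on double-stranded RNA, 6 of 8 were higher in Tu-primed than Spl-primed cells: *Zbp1* (log2 fold change 4.30), *Dhx58* (3.06), *Ddx58* (1.80), *Ifih1* (1.78), *Eif2ak2* (1.38) and *Adar* (0.94). *Mavs*, the adaptor of the Ddx58 and Ifih1 helicases, was lower (-0.28, adjusted p = 0.0293, edgeR, groups overlapping), but was not called without Tu replicate 1, 2 or 3, without Spl replicate 2 or 3, with length offsets, with protein-coding transcripts only or with only the 8 libraries compared. *Prkra* did not pass the test (-0.08, adjusted p = 0.675).

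Of the factors that carry the interferon signal to DNA, *Irf7* (4.33), *Irf9* (2.70), *Stat2* (1.93) and *Irf1* (0.32) were higher in Tu-primed than Spl-primed cells, and *Irf3* had -0.17 (adjusted p = 0.366, edgeR). The value of *Irf7*, whose translation Oasl1 restrains, stood beside 1.30 for *Oasl1* itself. Of the feedback genes, *Usp18*, which restrains the type I receptor, was higher (4.84), and *Socs1* had -0.28 (adjusted p = 0.531). Of the receptor chains and kinases, *Ifnar2* was higher (0.31), and *Ifnar1* (0.16), *Jak1* (0.02) and *Tyk2* (-0.32, adjusted p = 0.0626) did not pass. Of 5 interferon genes, *Ifnl2*, *Ifnl3* and *Ifng* had 0 counts in all 12 libraries, and *Ifnb1* and *Ifna4* at most 1 in any library.

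The genes whose course over the 12 libraries was most like the mean course of the OAS genes were found by the root mean square distance between log2 CPM values, each centred on its mean. The 10 nearest were *Phf11d* (0.19), *Apol9a* (0.27), *Bst2* (0.29), *Igtp* (0.29), *Ly6a* (0.30), *Irf9* (0.30), *Dhx58* (0.32), *Irgm2* (0.33), *Ifi27l2a* (0.34) and *Rtp4* (0.34), where the median over all genes tested was 1.61. Among OAS genes the distance to the mean ran from 0.27 for *Oasl2* to 1.20 for *Oasl1*, with *Oas2* (1.13) and *Oas1c* (1.05) also far from it. Of the 10 nearest genes, 6 were in the promoter table, and 4 of these, *Apol9a*, *Bst2*, *Igtp* and *Irgm2*, had an ISRE-type match. Bst2 tethers budding virus to the cell surface, and Igtp and Irgm2 are interferon-inducible GTPases. *Ly6a* encodes SCA1, the surface antigen by which the study follows its stem-like tumor cells.

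**Figure D5:**
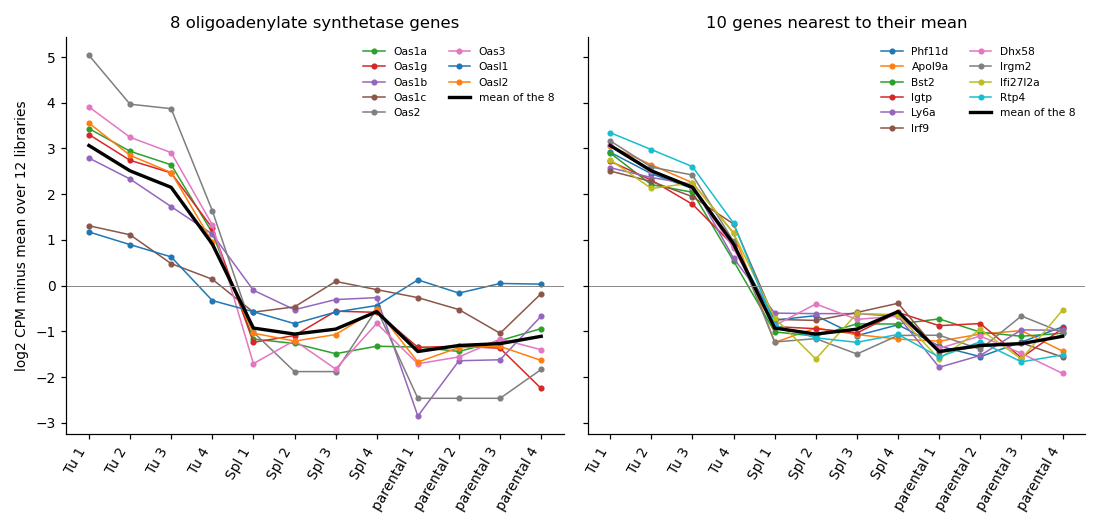
Log2 CPM minus its mean over the 12 libraries (vertical axis) for the 8 OAS genes (left) and the 10 genes nearest to their mean (right), with the mean of the 8 in black and lines joining the libraries of 1 gene. The Tu-primed libraries stand above 0 in both panels except replicate 4 of *Oasl1*, and *Oasl1* and *Oas1c* are the flattest of the 8.

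Markers of the partner cells were low but not level across groups. Levels of the 8 epithelial markers listed were uneven, from *Krt8* at 820.0 CPM or more and *Cdh1* at 59.1 CPM or more in every library to *Krt14* at 0.587 CPM or less. They summed to between 1635 and 1993 CPM in Tu-primed, 2042 and 2187 in Spl-primed and 2306 and 3452 in parental libraries. Of these 8 markers, 0 were called between Tu-primed and Spl-primed cells, 4 were lower in Tu-primed than parental cells (*Cdh1*, *Cldn3*, *Krt18* and *Krt8*), and 3 were lower and 1 (*Epcam*) higher in Spl-primed than parental cells. Of 14 granulocyte markers, 7 were at 0 in every library, among them *Mpo*, *Elane* and *Camp*, and the list summed to between 6.28 and 11.5 CPM in Tu-primed, 4.83 and 6.86 in Spl-primed and 5.36 and 6.57 in parental libraries. Of the 3 that could be tested, 2 were called higher in Tu-primed than in Spl-primed cells, 1 of them *Ltf*, beside 4.66% of all genes. Of 10 leukocyte and monocyte markers, 5 were at 0 in every library, among them *Tyrobp* and *Adgre1*, and 0 could be tested. The list summed to between 0.710 and 0.909 CPM in Tu-primed, 0.209 and 0.785 in Spl-primed and 0.168 and 0.719 in parental libraries. *Ly6c2* had 8 to 16 counts in Tu-primed, 2 to 6 in Spl-primed and 1 to 2 in parental libraries. *Ptprc* and *Csf1r* instead had their highest values in parental libraries. *Oasl2* ran from 17.2 to 104.8 CPM in Tu-primed cells, and none of the 12 libraries was of the partner cells themselves. The part of these markers in the differences of the OAS genes was not tested.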

How the data were processed

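RNA of 12 libraries was measured by bulk RNA-Seq with a stranded kit. The submitters' processing notes name FastQC, Trimmomatic 0.39, Salmon 1.4.0 and GRCm38/mm10. The authors deposited 1 table per library with estimated counts per Ensembl transcript, not normalized, and TPM values, to which the authors' quantification had applied scaling by effective length and library size. The effective lengths in the same deposited tables were used for offsets. A further table of normalized values was not used.

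Estimated counts were summed by gene with GENCODE M21, where 116021 of 117081 transcripts were found, and rounded. The others held at most 0.419% of the reads of a library. Salmon divides reads that fit several transcripts by estimation, so counts of near-identical Oas1 copies depend on that estimate. Counts were fitted in R 4.3.3 with edgeR 4.0.16 (filterByExpr, TMM with factors from 0.88 to 1.05, quasi-likelihood test, 1 fit of 12 libraries, no replicate term), and p-values were adjusted by Benjamini-Hochberg over 12555 genes with a threshold of 0.05. Shares of TPM were tested by exact permutation with scipy 1.17.1. Intervals of count ratios are exact and cover counting error only, at 95%. Alignments used Biopython 1.88, and figures matplotlib 3.10.9. The tests were tried on simulated data. Between libraries of a group, chi-square divided by its degrees of freedom was at least 3.46, above counting noise.

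The members and lists were chosen with earlier results of these data known. The genes named were all members, genes of the pathway lists and the 10 genes nearest in profile; some listed genes and markers are counted but not reported here by name. Alternatives were DESeq2 1.42.0, limma-voom (limma 3.58.1), RLE, no filter, length offsets, protein-coding transcripts, Oas1 copies added, 8 libraries, a replicate block, a threshold of 0.01, and each library left out.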

Additional observations from a re-analysis of the deposited data

Results flagged for a closer look

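In 2 of 24 groups of 4 libraries (8 OAS genes in 3 groups), 1 library stood apart by Dixon's ratio, the gap to its nearest neighbor over the range, at the 95% level. Chance gives about 1 in 20 such groups. For *Oas1g* in parental cells the ratio was 0.936, because parental replicate 4 had 0.400 CPM and the other 3 libraries between 0.797 and 0.824. For *Oas2* in parental cells the ratio was 1, because only parental replicate 4 held a read. The same library had the highest parental *Oas1a* (2.48 CPM) and *Oas1b* (0.719 CPM) values.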

How the results depend on the processing

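In Tu-primed over Spl-primed and over parental cells, each member kept its direction under every alternative that gave it a value of its own. *Oas1b* had no value with protein-coding transcripts only, and the Oas1 members shared 1 value when the copies were added. With *Oas1a* to *Oas1h* added, 5 of 5 remaining values were called higher in both comparisons. These include *Oas2*, whose call is not used because the filter kept it only for its high group. Of all 12552 genes in this setting, 582 were called higher and 372 lower in Tu-primed over Spl-primed cells. In Tu-primed over parental cells 3917 were called higher and 3512 lower, so a call there is common. In Spl-primed over parental cells 2 members were called, and 2 with DESeq2 and 3 with only the 8 libraries compared (*Oasl2* added, adjusted p = 0.0240), against 0 with limma-voom, with protein-coding transcripts only, with the replicate block and at an adjusted p under 0.01, and 1 with transcript length offsets and with the Oas1 copies added. Leaving out 1 library gave between 0 and 2. Of the pathway lists, 10 genes were called there and 6 at an adjusted p under 0.01. Directions that turned, none of them called, were *Oas1a* with the copies added (0.34) and without parental replicate 4 (0.023, between -0.15 and 0.023 over the libraries left out), *Oas3* without Spl replicate 4 (between -0.11 and 0.26), and *Oasl2* with protein-coding transcripts only (-0.036), all in Spl-primed over parental cells, and the share of *Oas1b*, which had no protein-coding reads (a difference of 0). Without 1 library, 0 of 8 TPM shares passed, since 3 against 4 libraries cannot give a p below 0.0571. With protein-coding transcripts only, the share of *Oas1g* did not pass either, with a difference of 0.959 percentage points.

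Replicate numbers did not pair the Spl-primed libraries with either other group: same-number correlations of deviations ran from -0.16 to 0.07. Between Tu-primed and parental libraries they ran from 0.08 to 0.15, against -0.22 to 0.14 for unlike numbers. Not every library correlated best with its own number there, and a pairing of these 2 groups was not settled. With the replicate block, over all genes 488 were higher and 256 lower in Tu-primed over Spl-primed cells, against 585 and 373, and *Oas1c* was no longer called (adjusted p = 0.0685). Length offsets gave 350 and 146, and an adjusted p under 0.01 gave 349 and 96. Depth limits *Oas2* outside Tu-primed cells and *Oas1b* in parental cells, where a count of 3 was the lowest.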
